A study of Mus musculus with 9 samples.

Results

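Replication-dependent histone genes are the clustered genes that supply the bulk of the histones packed onto newly made DNA. They were taken here as the entries whose symbol begins with Hist1h, Hist2h, Hist3h or Hist4h, which gave 66 of the 18639 gene entries of each library. The symbol alone does not show that every member, Hist2h2be for example, depends on replication. The libraries came from tumour tissue taken from mouse brains at day 5 after resection of tumours grown from CT2A, an established murine glioma cell line. The ThTC group received CT2A cells that secrete IFNβ, a type I interferon, together with GM-CSF, a myeloid growth factor. The GFP-TC group received control cells, and the sECM only group carries a label that names no cells. Each group had 3 libraries. All groups share the CT2A tumour and the resection, and results from a single tumour line describe that line. Separate animals behind the 3 libraries of each group are not stated by the labels, so p-values measure only how far these libraries spread, which may be technical. Whether implanted cells were still present in the harvested tissue is not given in the sources used here.

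As background, H2A, H2B, H3 and H4 are the proteins of the core around which DNA winds, and the linker histone H1 binds where DNA enters and leaves that core. Their genes are switched on at the start of S phase, when DNA is copied, and most of their messages end in a conserved hairpin, the stem-loop, instead of a poly(A) tail. The hairpin is bound by the protein SLBP, which guides processing and translation, and the messages decay when DNA synthesis stops. A subset of family members is also known to yield polyadenylated messages with longer ends, and replacement variants such as H3.3 and H2A.Z are made outside S phase from separate, intron-containing and polyadenylated genes. The sources used here do not say whether the libraries were made by poly(A) selection or by removal of ribosomal RNA, which decides how well messages without a tail are caught, so absolute levels of the family are tied to that unknown step. Reads of the near-identical copies in this family are also hard to place: 10 members fell into 5 groups with identical coding sequence, and of 59 members compared with a member of equal coding length, 49 were at least 95% identical to another one. The value of a single copy is therefore uncertain.

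Levels are given in TPM, the authors' measure of transcript abundance, which is corrected for transcript length and scaled to the same total in every library. Of the 66 members, 55 reached 1 TPM in at least 1 library, 41 did so in 3 or more libraries and 17 in all 9. Per library, 34, 35 and 35 members reached 1 TPM in ThTC libraries, 39, 33 and 34 with GFP-TC, and 31, 38 and 34 with sECM only, so the groups overlapped fully in this count. At 0.5 TPM the count in 3 or more libraries was 55, and at 2 TPM it was 29. The family was thus steeply graded: 9 members averaged 10 TPM or more over the 9 libraries, 1 lay between 5 and 10, 27 between 1 and 5, and 29 below 1. A value of 0 was listed in at least 1 library for 29 members, and Hist1h4n, named here after its values were seen, was listed at 0 in every library.

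**Figure D1:**
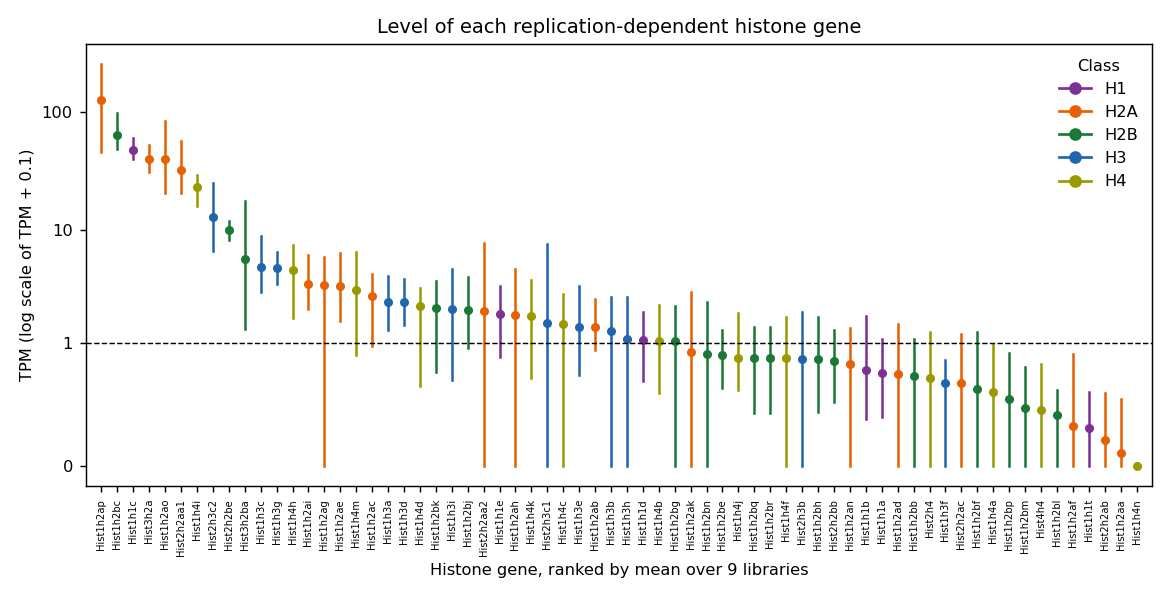
Level of each of the 66 replication-dependent histone genes, ranked by its mean over 9 libraries (point, coloured by class) with a line from the lowest to the highest library, in TPM on a log scale of TPM + 0.1. The dashed line marks 1 TPM, and 9 genes average 10 TPM or more.

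Summed over all 66 members, the family made 529, 425 and 531 TPM in ThTC libraries, 415, 344 and 451 TPM in GFP-TC libraries, and 624, 456 and 542 TPM in sECM only libraries. The group means were 495 ± 60.7 with ThTC, 403 ± 54.6 with GFP-TC and 541 ± 83.7 with sECM only (SD, n = 3 libraries each). The ThTC range overlapped with both others, while all 3 GFP-TC sums lay below all 3 sECM only sums, by 5.34 TPM at the nearest. Between same-numbered libraries of ThTC and GFP-TC, the sum was higher with ThTC by 114, 81.2 and 80.3 TPM. The labels do not state such pairs. Deviations from the group means ran together for numbers 1 and 3 (correlations 0.74 and 0.87) but only weakly for number 2 (0.12). The family made up 0.0344% to 0.0624% of each library's total. The 8 most abundant members held 75.2% to 86.2% of the sum, and the other 58 members together stayed between 85.1 and 101 TPM in every library.

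Among the libraries, 2 stood apart from the rest in the level of brain cell markers. All 10 neuron markers were detected, and their summed level was 325, 436 and 1601 TPM in ThTC libraries, 237, 500 and 1400 TPM in GFP-TC libraries, and 545, 385 and 404 TPM in sECM only libraries. The highest values belonged to ThTC library 3 and GFP-TC library 3, which also held the highest summed oligodendrocyte markers (2499 and 2058 TPM, against 164 to 734 TPM in the other libraries) and astrocyte markers (1558 and 1336 TPM, against 255 to 733 TPM). No marker of these 3 lists was at 0 in all libraries. Markers of glioma and progenitor cells, including Vim, Sox2 and Nes, summed to 3802 to 4956 TPM in ThTC libraries, 4586 to 5412 TPM in GFP-TC libraries and 4534 to 4857 TPM in sECM only libraries, so the genes that the glioma label implies were expressed. Monocyte and macrophage markers summed to 1210 to 2259 TPM in ThTC libraries, 622 to 1229 TPM in GFP-TC libraries and 906 to 1116 TPM in sECM only libraries, and their part in the histone values was not tested. ThTC library 3 and GFP-TC library 3 were the highest 2 of the 9 for 3307 of 13829 tested genes (23.9%) and for 7 of 41 tested members (17.1%), a share not above that of all genes. In bulk tissue, fewer cells of a type and less RNA per cell cannot be told apart.

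Linker histones were represented by 6 genes, of which 5 reached 1 TPM in some library, 3 in at least 3 libraries and 1 in all 9. Hist1h1c, which encodes the linker histone H1.2, carried nearly all of the class. It had 42.8, 50.1 and 61.0 TPM in ThTC libraries, 39.8, 44.2 and 57.1 TPM in GFP-TC libraries, and 40.7, 44.7 and 52.4 TPM in sECM only libraries. The 3 groups overlapped, and its highest values were in ThTC library 3 and GFP-TC library 3, the 2 libraries with the highest brain cell markers. The part of brain cell content in that order was not tested. Summed over the class, H1 lay between 44.0 and 66.2 TPM. The linker histone genes H1f0 and H1fx, which are not members, together reached 534 to 894 TPM. That is 8.07 to 20.3 times the sum of the 6 members in the same library.

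H2A was the most abundant class, with 18 genes, 12 of them at 1 TPM in 3 or more libraries and 6 in all 9. It held 43.6% to 68.4% of the family's sum. Hist1h2ap was the highest member of all, with 180.1, 96.5 and 82.9 TPM in ThTC libraries, 98.3, 45.7 and 74.3 TPM in GFP-TC libraries, and 257, 128.5 and 182 TPM in sECM only libraries. Its GFP-TC values all lay below its sECM only values, while ThTC values spanned the gap between them. Hist1h2ao, whose coding sequence is identical, had 56.3, 27.6 and 35.1 TPM in ThTC libraries, 25.0, 20.5 and 25.9 TPM in GFP-TC libraries, and 84.0, 39.8 and 46.7 TPM in sECM only libraries. Its GFP-TC libraries were the lowest 3 of the 9. The ratio of Hist1h2ap to Hist1h2ao ranged from 2.23 to 3.94 over libraries. Because their reads may have been divided between both entries, their sum is the safer quantity: 236, 124 and 118 TPM in ThTC libraries, 123, 66.2 and 100.2 TPM in GFP-TC libraries, and 341, 168 and 229 TPM in sECM only libraries. All 3 GFP-TC sums of the pair lay below all 3 sECM only sums. The pair alone was 19.3% to 54.6% of the whole family.

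Much of the spread of the family's total lay in this pair. Without Hist1h2ao and Hist1h2ap the other 64 members summed to 292, 301 and 413 TPM in ThTC libraries, 292, 278 and 351 TPM in GFP-TC libraries, and 283, 288 and 313 TPM in sECM only libraries. The group means then stood at 335 ± 67.6 with ThTC, 307 ± 38.9 with GFP-TC and 295 ± 15.8 with sECM only (SD, n = 3 each), and the sECM only group, which had the highest total with the pair, had the lowest without it. All ranges overlapped once the pair was left out.

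**Figure D2:**
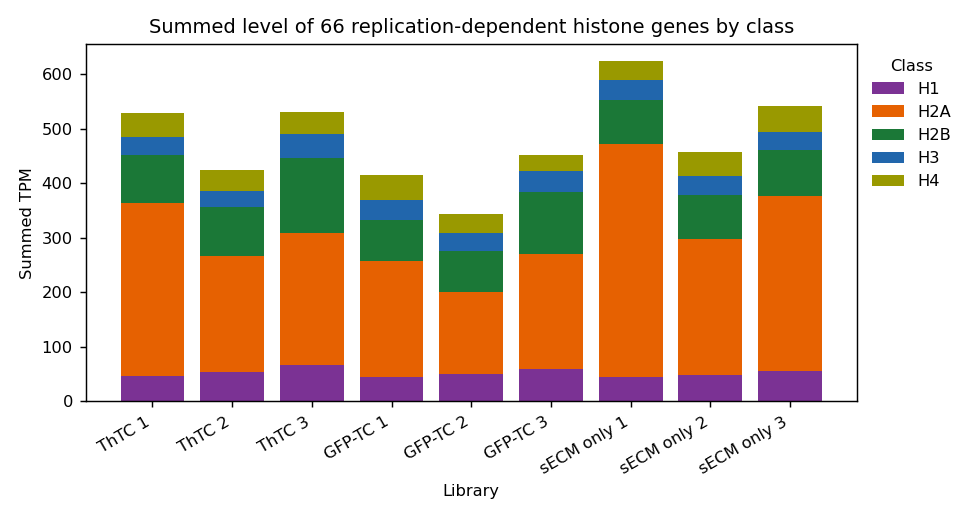
Summed TPM of the 66 replication-dependent histone genes in each of the 9 libraries, stacked by class (H1, H2A, H2B, H3, H4). H2A is the largest class in every library, from 150 TPM in GFP-TC library 2 to 427 TPM in sECM only library 1.

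A different order was seen for Hist2h2aa1 and Hist3h2a, H2A genes of other clusters. Hist2h2aa1 had 20.5, 32.5 and 56.8 TPM in ThTC libraries, 24.4, 25.3 and 46.1 TPM in GFP-TC libraries, and 33.6, 27.2 and 25.0 TPM in sECM only libraries. Hist3h2a had 40.8, 35.3 and 52.9 TPM in ThTC libraries, 35.2, 40.5 and 50.7 TPM in GFP-TC libraries, and 35.3, 31.0 and 40.0 TPM in sECM only libraries. For both genes ThTC library 3 was the highest and GFP-TC library 3 the next, and the groups overlapped. Summing Hist2h2aa1 with its identical copy Hist2h2aa2 left the order of these 2 libraries as it was, at 56.8 TPM in ThTC library 3 and 46.1 TPM in GFP-TC library 3. The 6 H2A variant genes measured, H2afz and H2afx among them, summed to 1041 to 1421 TPM. That is 2.91 to 7.41 times the sum of the 18 members in the same library. Like the H1 ratio above, it depends on how well messages without a tail were caught. H2afz, the variant often placed at gene starts, ranged from 568 to 890 TPM, and H2afx, whose product is phosphorylated at DNA breaks, ranged from 174 to 214 TPM.

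H2B had 17 genes, 9 of them at 1 TPM in 3 or more libraries and 3 in all 9. Hist1h2bc led the class, with 60.7, 69.7 and 99.7 TPM in ThTC libraries, 52.5, 48.9 and 77.4 TPM in GFP-TC libraries, and 54.7, 58.2 and 60.9 TPM in sECM only libraries. Its groups overlapped, and ThTC library 3 was again the highest and GFP-TC library 3 the next. Hist2h2be was the steadiest of the abundant members: 9.22, 8.19 and 9.03 TPM in ThTC libraries, 11.4, 10.9 and 11.0 TPM in GFP-TC libraries, and 9.44, 9.29 and 11.8 TPM in sECM only libraries. All 3 ThTC values lay below every value of the other groups. Hist3h2ba, the H2B neighbour of Hist3h2a and named here after its values were seen, spread far more, with 2.11, 3.32 and 17.7 TPM in ThTC libraries, 1.90, 4.88 and 10.5 TPM in GFP-TC libraries, and 5.47, 1.36 and 3.59 TPM in sECM only libraries. Its highest values were also in ThTC library 3 and GFP-TC library 3. Snap25, a neuronal vesicle gene, had 33.7, 69.3 and 414 TPM in ThTC libraries, 18.5, 76.8 and 314 TPM in GFP-TC libraries, and 90.2, 48.8 and 61.5 TPM in sECM only libraries, and its part in these values was not tested.

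H3 had 12 genes, 10 of them at 1 TPM in 3 or more libraries and 5 in all 9, but at low levels. The top gene was Hist2h3c2, with 10.3, 6.63 and 25.0 TPM in ThTC libraries, 9.63, 14.7 and 18.0 TPM in GFP-TC libraries, and 14.7, 8.88 and 8.20 TPM in sECM only libraries. Its groups overlapped, with ThTC library 3 highest. Its identical copy Hist2h3c1 was listed at 0 in 7 libraries, at 6.36 TPM in ThTC library 2 and at 7.49 TPM in sECM only library 3. Added together, the copies had 10.3, 13.0 and 25.0 TPM in ThTC libraries, 9.63, 14.7 and 18.0 TPM in GFP-TC libraries, and 14.7, 8.88 and 15.7 TPM in sECM only libraries. The class sum, at 29.5 to 44.1 TPM, was small beside the H3.3 genes H3f3a and H3f3b, which together reached 1176 to 1540 TPM, or 29.5 to 45.6 times as much in the same library. H3f3a ranged from 712 to 977 TPM and H3f3b from 452 to 608 TPM. That ratio compares messages that may lack a tail with messages that carry one, and so depends on how the libraries were made.

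H4 had 13 genes, 7 of them at 1 TPM in 3 or more libraries and 2 in all 9. Hist1h4i was the top gene, with 29.2, 20.8 and 20.96 TPM in ThTC libraries, 29.0, 18.8 and 16.1 TPM in GFP-TC libraries, and 17.9, 28.4 and 29.6 TPM in sECM only libraries. The groups overlapped, and ThTC library 3 and GFP-TC library 3 were not its highest. H4 has no replacement variant in the list used here, and its class sum lay between 29.2 and 47.3 TPM.

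**Figure D3:**
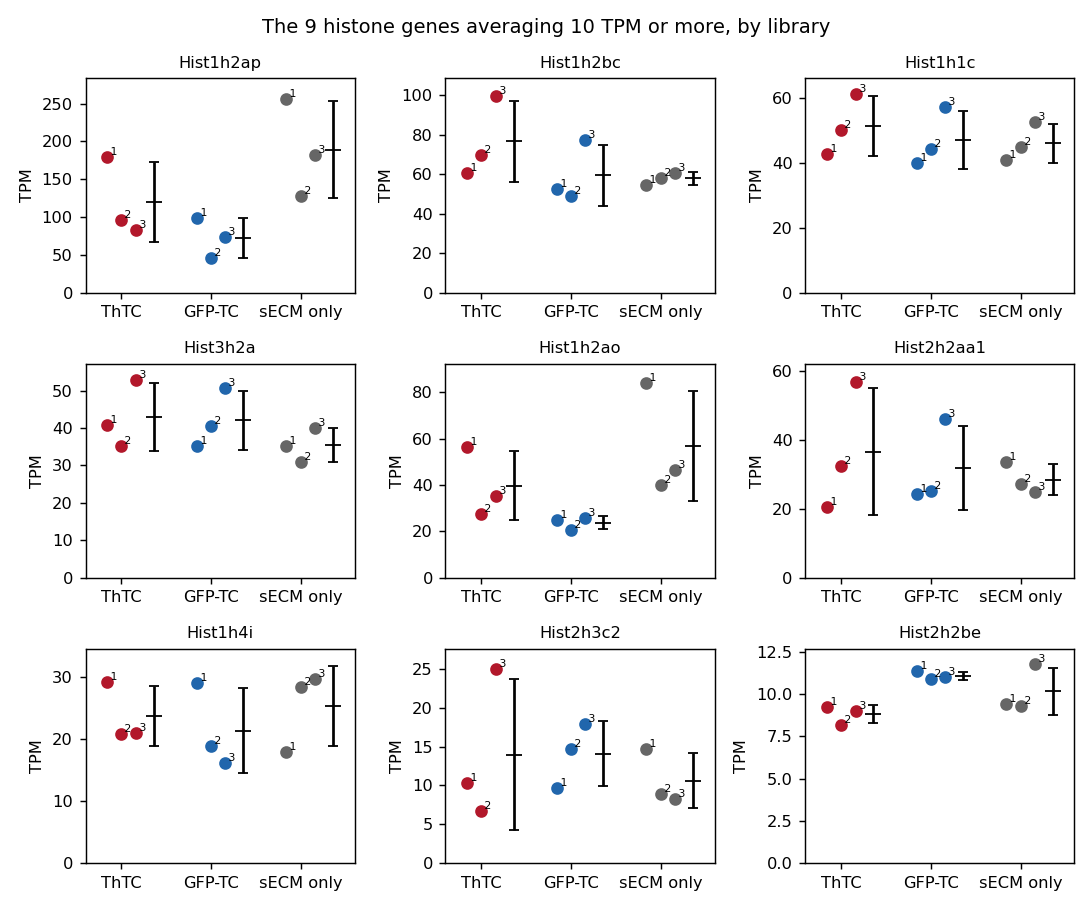
Level in TPM of the 9 histone genes averaging 10 TPM or more, in each library (points, numbered by replicate) of ThTC, GFP-TC and sECM only, with group mean and SD (bars, n = 3). Hist1h2ap and Hist1h2ao have their lowest mean in the GFP-TC group, and all 3 ThTC values of Hist2h2be lie below those of the other groups.

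By position, 53 members lie in the Hist1 cluster on chromosome 13 (GRCm38, from 21715763 to 23934851), 10 in Hist2 on chromosome 3 (96219865 to 96270132), 2 in Hist3 on chromosome 11 (58948920 to 58956830), and Hist4h4 alone on chromosome 6 (136801553 to 136804415). At 1 TPM in 3 or more libraries there were 34 members of Hist1, 5 of Hist2, both of Hist3 and none of Hist4. The Hist3 genes had the highest median of gene means, 22.9 TPM, against 1.09 TPM in Hist1 and 1.13 TPM in Hist2, but that median covers only 2 genes. Hist4h4 ranged from 0 to 0.64 TPM. Around the threshold, the 3 members with the lowest mean that still met it were Hist1h2an, Hist2h3b and Hist1h2br, with means of 0.629, 0.718 and 0.721 TPM. The 3 with the highest mean that did not were Hist2h3c1, Hist1h2ak and Hist1h2bn, with means of 1.54, 0.821 and 0.787 TPM.

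The hairpin that gives these messages their end could be read in the annotated transcripts, and it is shown for the abundant members and for a few whose hairpin differs. The letters come from GENCODE M21 transcripts (GRCm38), lie just after the coding sequence, and are printed in the direction of the message with T for U. The capitals mark the stem-loop, whose outer letters pair with each other and whose middle letters form the loop.
Hist1h2ap, chr13:21833026-21833049, minus strand: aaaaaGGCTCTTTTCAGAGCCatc
Hist1h2ao, chr13:21810893-21810918, plus strand: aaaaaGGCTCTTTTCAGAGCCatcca
Hist2h2aa1, chr3:96246027-96246052, plus strand: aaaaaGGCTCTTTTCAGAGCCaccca
Hist3h2a, chr11:58955167-58955192, plus strand: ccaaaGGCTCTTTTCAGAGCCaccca
Hist1h1c, chr13:23739507-23739532, plus strand: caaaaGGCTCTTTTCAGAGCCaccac
Hist2h3c2, chr3:96238480-96238505, minus strand: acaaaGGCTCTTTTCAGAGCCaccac
Hist1h3c, chr13:23745042-23745067, minus strand: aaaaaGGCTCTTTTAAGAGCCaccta
Hist1h4h, chr13:23531453-23531478, plus strand: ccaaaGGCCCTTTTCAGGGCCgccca
Hist1h4i, chr13:22040961-22040986, minus strand: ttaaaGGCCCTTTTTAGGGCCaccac

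The transcript strand was searched for GG, any 2 bases, CTTTT, any base, AG, any 2 bases and CC, in that order and without gaps. In members only matches after the coding sequence were counted, and 44 of the 66 had one. Anywhere in the transcript, such letters were found in 72 of 21877 genes with a protein-coding transcript (0.329%), members included. The search did not require the stem letters to pair. The form seen in Hist1h2ap was the commonest, in 26 members. The exact letters of Hist1h4h, with a CC and GG pair inside the stem, occurred in 7 members, all of them H4 genes, of 11 H4 genes with the motif. The remaining 11 members had other forms, as in Hist1h3c and Hist1h4i. Among them, Hist1h4i and Hist2h4 share the stem letters of Hist1h4h and differ from it only in the loop. Of the 22 members without a match, 16 have fewer than 60 annotated bases after the stop codon. In 12 of these there are none, so that a hairpin could not be read. A short end does not by itself hide the hairpin, as Hist1h2ap carries it within 57 annotated bases after the stop codon.

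Where the annotated message ends varied among members and differed between the abundant ones. In 22 members the transcript ends within 100 bases after the hairpin, in 22 it runs on past it, and in 22 no hairpin was found. Hist1h2ap and Hist1h2ao belong to the short form, ending 3 and 31 bases after the hairpin, and so does Hist2h2aa1. Hist1h1c runs on for 840 bases, Hist3h2a for 1643, Hist2h3c2 for 377 and Hist1h4i for 330. Hist1h2bc is annotated as a spliced transcript and Hist2h2be as a single exon of 2620 bases, both without the motif. A polyadenylation hexamer, AATAAA or ATTAAA, lay in the last 50 bases of 11 of the 22 members that run on, against 2 of the 22 that end at the hairpin and 4 of the 22 with no hairpin found. Of those 2, Hist1h2bp has it only in a second, spliced transcript that lacks the hairpin. The median of gene means was 1.52 TPM for members that run on and 1.68 TPM for members that end at the hairpin, while members averaging 10 TPM or more numbered 4 and 3. High members were thus found with either kind of end.

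Genes for H2A and H2B often stand head to head and share the DNA between their starts. There were 11 such divergent pairs among the members, with starts 176 to 302 bases apart. The H2A gene had the higher mean in 8 pairs and the H2B gene in 3, and in 6 pairs the same gene was higher in all 9 libraries. Hist1h2ap averaged 127 TPM and its partner Hist1h2br 0.721 TPM, with starts 236 bases apart, a ratio of 177. Hist1h2ao averaged 40.1 TPM and Hist1h2bq 0.722 TPM. The Hist1h2bq and Hist1h2br entries, identical in coding sequence, had the same value in 8 of 9 libraries. The order was the other way for Hist1h2ac, at 2.69 TPM, beside Hist1h2bc, at 64.8 TPM, and for Hist2h2ac, at 0.409 TPM, beside Hist2h2be, at 10.03 TPM. Sharing a start region thus went with unequal levels in the most abundant pairs, within the limit that copies share reads. Hist1h2bc is also near-identical to other H2B members over its coding sequence (99.5% to Hist1h2br) but carries a transcript end of its own.

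**Figure D4:**
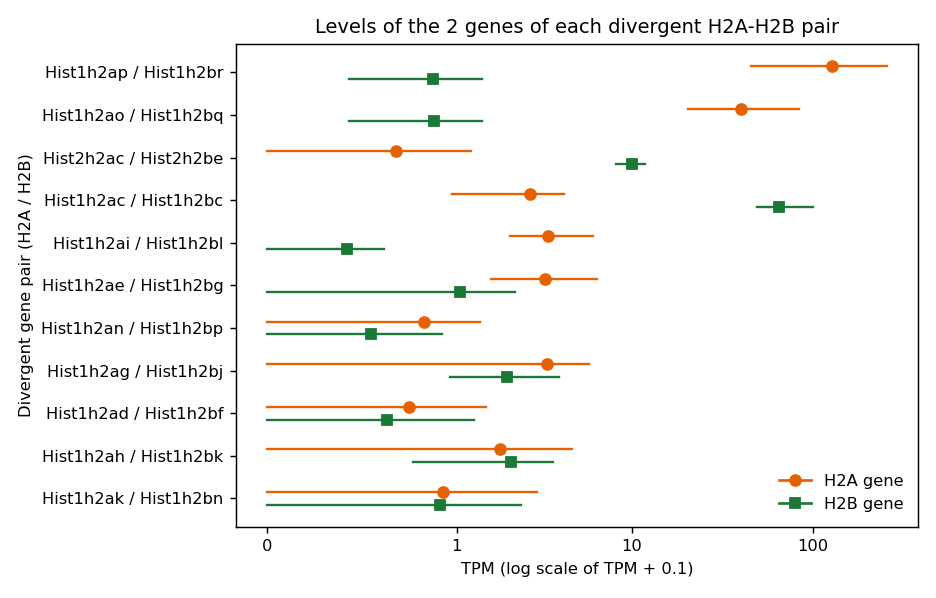
Mean level over 9 libraries of the H2A gene (circle) and the H2B gene (square) of each of 11 divergent pairs, with lines from the lowest to the highest library, in TPM on a log scale of TPM + 0.1. In the 4 pairs with the largest ratio, either the H2A gene or the H2B gene is higher in all 9 libraries.

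Upstream sequences are shown for Hist1h2ap, the highest member, for the region shared by Hist1h2ac and Hist1h2bc, and for Hist3h2a, the highest member outside Hist1. They are from the RefSeq promoter table (GRCm38.p6), which matched 61 of the 66 members, and are cut where an annotated gene begins. They read toward the start of the named gene, and the capitals mark CCAAT, the letters bound by the factor NF-Y, and ATTTGCAT, the octamer bound by OCT1, on either strand.
Hist1h2ap, chr13:21833508-21833725, minus strand: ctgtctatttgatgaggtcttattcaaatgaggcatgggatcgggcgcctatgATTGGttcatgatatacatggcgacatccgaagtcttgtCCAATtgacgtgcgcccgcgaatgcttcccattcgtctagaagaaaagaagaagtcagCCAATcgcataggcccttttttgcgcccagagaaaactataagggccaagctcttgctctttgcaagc
Hist1h2ac, chr13:23683960-23684198, minus strand: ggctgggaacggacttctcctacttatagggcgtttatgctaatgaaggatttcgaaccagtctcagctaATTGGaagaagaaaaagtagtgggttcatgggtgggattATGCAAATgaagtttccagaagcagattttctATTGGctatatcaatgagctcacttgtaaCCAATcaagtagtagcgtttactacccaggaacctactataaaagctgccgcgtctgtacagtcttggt
Hist3h2a, chr11:58954513-58954670, plus strand: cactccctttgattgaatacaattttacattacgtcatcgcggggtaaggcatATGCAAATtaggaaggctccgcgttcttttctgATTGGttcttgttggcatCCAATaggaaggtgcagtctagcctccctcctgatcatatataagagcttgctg

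The first sequence holds 3 CCAAT matches and no octamer, the region between Hist1h2ac and Hist1h2bc holds 3 and 1, and that of Hist3h2a holds 2 and 1. Over the 250 bases before the start, on both strands, CCAAT was found in 50 of 61 members, against 33.9% of 32851 promoters in the table. It was in 6 of 6 H1, 18 of 18 H2A and 15 of 15 H2B promoters, and in 8 of 10 H3 and 3 of 12 H4 promoters. The octamer ATTTGCAT was found in 13 members, 7 of them H2A and 6 H2B, against 1.60% of all promoters. TATAAA was found in 28 members, against 12.4% of all promoters. Matches of different motifs may overlap at their ends, divergent pairs share part of their windows, and a match is a description of the letters only.

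For ThTC against GFP-TC, which sets cytokine-secreting cells against control cells, no member passed the test. Limma was run on log2(TPM + 1) for the 13829 entries at 1 TPM or more in at least 3 libraries, with Benjamini-Hochberg adjustment over all of them and a threshold of 0.05. It called 0 genes, 0 of them members (background 0%), while 2065 genes (14.9%) and 2 of 41 members had an unadjusted p under 0.05. Both members lay lower with ThTC, as did 12.9% of all genes at that p, while 2.03% lay higher. A fit on the 6 libraries of these groups that took the replicate number as a block called 8 genes, again with no member among them. The 4 members with the smallest p were Hist1h3i, Hist2h2be, Hist1h2ao and Hist1h2bk.

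Hist1h3i, an H3 gene, had 0.44, 0.86 and 1.01 TPM in ThTC libraries, 1.65, 2.18 and 3.24 TPM in GFP-TC libraries, and 4.64, 3.23 and 1.21 TPM in sECM only libraries. All ThTC libraries lay below all others, at values near the level of detection. Its log2 fold change for ThTC against GFP-TC was -0.91 with an SE of 0.36 (limma adjusted p = 0.319), or -1.51 with a pseudocount of 0.1. Hist2h2be, whose values stand above, had a log2 fold change of -0.30 with an SE of 0.13 (limma adjusted p = 0.333), or -0.18 after median-of-ratios scaling. This was the tightest of the 4, and its ThTC and GFP-TC values did not overlap.

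Hist1h2ao lay higher in all 3 ThTC libraries than in all 3 GFP-TC libraries, with a log2 fold change of 0.66 and an SE of 0.315 (limma adjusted p = 0.358). Without ThTC library 1 that value was 0.38. Hist1h2bk, an H2B gene, had 3.64, 2.51 and 1.47 TPM in ThTC libraries, 1.10, 2.23 and 0.53 TPM in GFP-TC libraries, and 1.93, 2.66 and 2.75 TPM in sECM only libraries. Its groups overlapped, and its log2 fold change was 0.65 with an SE of 0.33 (limma adjusted p = 0.375). It was 0.40 without GFP-TC library 3 and 1.04 with a pseudocount of 0.1.

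Over the 41 tested members, 22 had a log2 fold change above 0 and 19 below, with a median of 0.02, against a median of -0.10 over all tested genes, of which 33.8% were above 0. Median-of-ratios scaling moved the median of all genes by 0.12 to 0.02 and the share above 0 to 53.5%, with 23 members above 0 and a member median of 0.14. The member median stood 0.13 above that of all genes before scaling and 0.12 above it after scaling. The sign of the member median also turned without ThTC library 3, to -0.11. Groups did not overlap for 2 members on the higher side (Hist1h2ao and Hist1h3b) against 2.20% of all genes, and for 3 on the lower side (Hist1h3i, Hist2h2be and Hist1h1d) against 16.9% of all genes. Hist1h3b and Hist1h1d are named after their values were seen. Between same-numbered libraries, 11 of 41 members went the same way in all 3 pairs, against 44.6% of all genes. Of the 41 members, 8 were higher with ThTC in all 3 pairs, against 1663 of all 13829 genes. On the lower side there were 3 of the 41, against 4503 of the 13829 genes (32.6%). The higher ones included Hist1h2ap, Hist1h2ao, Hist1h2bc, Hist1h1c and Hist1h4i. Hist1h2ap and Hist1h2ao are identical in coding sequence and are not separate cases.

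For ThTC against sECM only, the treated group against the arm without named cells, limma again called 0 genes and 0 members (background 0%), with 954 genes (6.90%) and 1 member at an unadjusted p under 0.05. That member lay lower with ThTC, as did 5.36% of all genes at that p. That comparison shares its ThTC libraries with the first. Hist1h3i, with the smallest p, had a log2 fold change of -1.10 with an SE of 0.36 (limma adjusted p = 0.687), or -1.72 with a pseudocount of 0.1, and ThTC libraries lay below all sECM only libraries. Hist1h2ac, an H2A gene, had 1.79, 1.93 and 2.72 TPM in ThTC libraries, 2.27, 0.94 and 3.23 TPM in GFP-TC libraries, and 3.46, 4.16 and 3.68 TPM in sECM only libraries. Its ThTC and GFP-TC libraries all lay below its sECM only libraries, and its log2 fold change for ThTC was -0.61 with an SE of 0.29 (limma adjusted p = 0.687).

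Hist2h3b, an H3 gene at the edge of detection, was listed at 1.45, 1.94 and 0.74 TPM in ThTC libraries, 1.47, 0 and 0 TPM in GFP-TC libraries, and 0, 0.86 and 0 TPM in sECM only libraries. Groups overlapped, and its log2 fold change for ThTC against sECM only was 0.92 with an SE of 0.44 (limma adjusted p = 0.687). A smaller pseudocount of 0.1 put the same value at 2.70. Hist1h2ap had a log2 fold change of -0.68 with an SE of 0.38 (limma adjusted p = 0.687), which was -1.02 without ThTC library 1 and -0.44 without sECM only library 1. These single libraries, the highest of their groups for this gene, moved its value by less than its SE.

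In this comparison 17 members lay above 0 and 24 below, with a median of -0.08, against -0.03 over all tested genes, of which 44.4% were above 0 and 55.6% below. Groups did not overlap for 1 member on the higher side (Hist1h3d, named after its values were seen) against 5.03% of all genes, and for 3 on the lower side (Hist1h3i, Hist1h2ac and Hist2h2be) against 12.1% of all genes. The members' shares were thus near or below those of all genes.

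For GFP-TC against sECM only, the control cells against the arm without named cells, limma called 0 genes and 0 members (background 0%). The unadjusted p was under 0.05 for 129 genes (0.933%) and for 3 members. The 3 members lay lower with GFP-TC, as did 0.434% of all genes at that p, while 0.499% lay higher. The comparison shares its libraries with the other 2. Hist1h2ao had a log2 fold change of -1.15 with an SE of 0.315 (limma adjusted p = 0.997), and Hist1h2ap of -1.38 with an SE of 0.38 (limma adjusted p = 0.997). For both genes all 3 GFP-TC libraries lay below all 3 sECM only libraries. As these genes are identical in coding sequence, they are not separate cases. Summed into 1 entry, a step chosen after the data were seen, they gave a log2 fold change of -1.33 with an SE of 0.35 (limma adjusted p = 0.997). Leaving out 1 library at a time gave -1.37 to -0.84 for Hist1h2ao, the smallest without sECM only library 1, and -1.63 to -1.08 for Hist1h2ap, the smallest without GFP-TC library 2.

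Hist1h2ac had a log2 fold change of -0.67 with an SE of 0.29 (limma adjusted p = 0.997), or -0.36 without GFP-TC library 2. Hist1h4c, an H4 gene, had 0.42, 2.76 and 2.42 TPM in ThTC libraries, 1.49, 0.41 and 0 TPM in GFP-TC libraries, and 2.30, 2.10 and 1.61 TPM in sECM only libraries. Its GFP-TC libraries lay below its sECM only libraries, and its log2 fold change was -0.98 with an SE of 0.45 (limma adjusted p = 0.997), or -2.27 with a pseudocount of 0.1. Groups did not overlap for 4 members on the lower side (Hist1h2ao, Hist1h2ap, Hist1h2ac and Hist1h4c), against 1.08% of all genes. As Hist1h2ao and Hist1h2ap are identical in coding sequence, these are not 4 separate cases. On the higher side there was 1 (Hist1h3d), against 3.15%. Across the 41 members 21 lay above 0 and 20 below, with a median of 0.01, against 0.08 over all tested genes, of which 71.8% were above 0. After median-of-ratios scaling, 18 of the 41 members and 45.9% of all genes lay above 0, with medians of -0.08 and -0.01. The lower values of these 4 genes were therefore not shared by the family as a whole, and none passed the test.

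**Figure D5:**
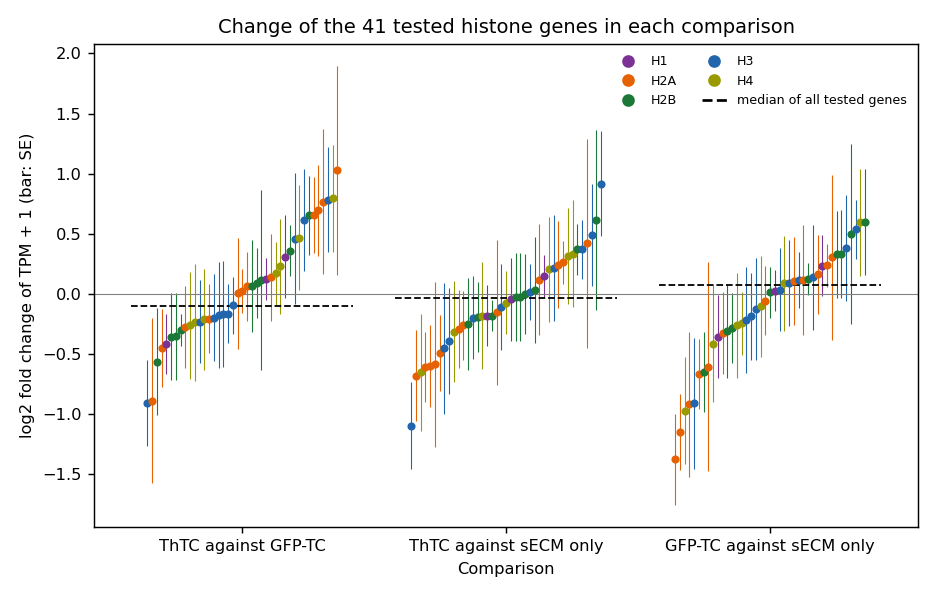
Log2 fold change of TPM + 1 for each of the 41 tested histone genes (points by class, bars are SE), ordered by value within each of the 3 comparisons (ThTC against GFP-TC on the left). Dashed lines mark the median of all tested genes, at -0.10, -0.03 and 0.08, and values of the histone genes fall on both sides in each comparison.

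The members below the filter cannot enter that fit. Among 25 such genes, 14 reached 1 TPM in some library. For Hist2h3c1, Hist1h2ak and Hist1h2bn, two-sided exact permutation tests of the mean log2(TPM + 1) gave p from 0.2 to 1.0 over the 3 comparisons, where 3 libraries against 3 allow no p below 0.1. Hist1h2ak had 0.22, 1.07 and 0 TPM in ThTC libraries, 2.93, 0.75 and 0.52 TPM in GFP-TC libraries, and 0.23, 0.92 and 0.75 TPM in sECM only libraries. Hist1h2bn had 0.65, 0.96 and 1.68 TPM in ThTC libraries, 0.37, 0 and 2.38 TPM in GFP-TC libraries, and 0, 0.68 and 0.36 TPM in sECM only libraries. Groups overlapped for both genes.

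Of 25 listed genes that make, trim or degrade these messages, 23 were found and 22 reached the filter. Slbp, the hairpin-binding factor, had 63.2, 59.7 and 58.0 TPM in ThTC libraries, 72.6, 73.4 and 62.4 TPM in GFP-TC libraries, and 62.7, 69.1 and 74.6 TPM in sECM only libraries, and the groups overlapped. Npat, the activator of histone transcription at the start of S phase, ranged from 14.5 to 19.6 TPM. Among the 22 tested genes none was called in any comparison, and 3 lay above 0 and 19 below for ThTC against GFP-TC (median -0.20, against -0.10 over all genes, of which 66.2% were below 0). Against sECM only, 4 lay above 0 and 18 below with ThTC (median -0.15), and 18 above and 4 below with GFP-TC (median 0.07). Upf1, a helicase that takes part in the decay of histone messages, had the smallest p for ThTC against GFP-TC. It had 81.8, 76.8 and 75.0 TPM in ThTC libraries, 97.4, 128 and 101 TPM in GFP-TC libraries, and 89.7, 98.0 and 102 TPM in sECM only libraries, so ThTC libraries lay below all others. Its log2 fold change was -0.47 with an SE of 0.11 (limma adjusted p = 0.316). Sympk, a scaffold of the cleavage complex and the highest of the list, had 131, 120.5 and 125 TPM in ThTC libraries, 157, 181 and 148 TPM in GFP-TC libraries, and 153, 146 and 160 TPM in sECM only libraries.

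Histone chaperones, which carry newly made histones to DNA, showed 2 of 24 above 0 and 22 below for ThTC against both other groups, with medians of -0.20 against GFP-TC and -0.19 against sECM only, and none was called. With GFP-TC against sECM only, 17 lay above 0 and 7 below (median 0.03). Chaf1a, the large subunit of the chromatin assembly factor CAF-1, had 44.9, 40.3 and 38.6 TPM in ThTC libraries, 55.3, 62.7 and 50.4 TPM in GFP-TC libraries, and 50.5, 54.7 and 56.0 TPM in sECM only libraries. All ThTC libraries lay below all others, with log2 fold changes of -0.43 (SE 0.10, limma adjusted p = 0.316) against GFP-TC and -0.37 (SE 0.10, limma adjusted p = 0.687) against sECM only. Of 34 genes of DNA replication and S phase, 5 lay above 0 and 29 below against GFP-TC (median -0.15), and 4 above and 30 below against sECM only (median -0.17). Of 20 genes of G2 and mitosis, 3 lay above and 17 below against GFP-TC (median -0.17), and 2 above and 18 below against sECM only (median -0.22). For GFP-TC against sECM only, 6 of these 20 lay above and 14 below (median -0.06). None of either list was called.

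Of all tested genes, 66.2% lay below 0 for ThTC against GFP-TC and 55.6% for ThTC against sECM only. Under median-of-ratios scaling, ThTC against GFP-TC gave medians of -0.07 for message processing, -0.07 for chaperones, -0.02 for S phase and -0.03 for mitosis, beside 0.02 over all genes. Against sECM only, the scaled medians with ThTC were -0.11 for message processing, -0.16 for chaperones, -0.13 for S phase and -0.18 for mitosis. With GFP-TC against sECM only, scaling turned the sign for message processing to -0.03 and for chaperones to -0.06. The scaled medians there were -0.13 for S phase and -0.15 for mitosis, beside -0.01 over all genes. All 20 mitosis genes then lay below 0.

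The proliferation genes given here are 3 preset ones, followed by those with the smallest p for ThTC in the S phase and mitosis lists. Mki67, a marker of cycling cells, had 48.9, 38.4 and 35.4 TPM in ThTC libraries, 47.7, 57.8 and 50.5 TPM in GFP-TC libraries, and 41.2, 49.8 and 64.9 TPM in sECM only libraries. Top2a, a topoisomerase of dividing cells, had 163, 154 and 132 TPM in ThTC libraries, 158, 187 and 165 TPM in GFP-TC libraries, and 152, 178 and 205 TPM in sECM only libraries. Pcna, the sliding clamp of DNA polymerase, had 317, 324 and 305 TPM in ThTC libraries, 352, 278 and 249.9 TPM in GFP-TC libraries, and 306, 321 and 320.4 TPM in sECM only libraries. Groups overlapped for all 3 preset genes in each comparison. Uhrf1, an S phase gene, lay at 73.5 to 92.6 TPM with ThTC and 99.35 to 113.5 TPM with GFP-TC. Cenpe, a mitosis gene, lay at 22.6 to 29.5 and 30.6 to 38.1 TPM. Log2 fold changes were -0.31 (SE 0.10, limma adjusted p = 0.316) and -0.41 (SE 0.16, limma adjusted p = 0.317). Cdt1, an S phase gene, lay at 90.6 to 112 TPM with ThTC and 121 to 130 TPM with sECM only. Its log2 fold change was -0.34 (SE 0.09, limma adjusted p = 0.687). For Cenpe those groups overlapped. For GFP-TC against sECM only, where Hist1h2ao and Hist1h2ap had their largest differences, 16 of the 34 S phase genes lay above 0 and 18 below (median -0.04, against 0.08 over all tested genes). After median-of-ratios scaling, 5 of these S phase genes lay above 0 and 29 below (median -0.13, against -0.01 over all tested genes). The 11 tested variant histone genes had medians of -0.17 for ThTC and -0.11 for GFP-TC, each against sECM only, and of -0.0006 for ThTC against GFP-TC (0.13 after median-of-ratios scaling), with none called. These lists were put together with earlier results of these data known, and nothing is called particular to them.

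The members also differed from each other in how far their libraries spread. Among the 9617 genes averaging 10 TPM or more, the highest library was a median of 1.49 times the lowest, and among the 9 members at that level the median was 2.04, from 1.44 for Hist2h2be to 5.62 for Hist1h2ap. The library with the highest value differed between members. Of the 41 tested members, 10 had it in ThTC library 3, 5 each in ThTC library 1 and sECM only library 3, 1 in GFP-TC library 3, and 4 in each of the other 5 libraries. No single library was therefore the highest for most of the family.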

How the data were processed

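RNA of the 9 tumour tissue libraries was extracted with a Qiagen kit and sequenced on DNBseq to 4.47 Gb of bases each, per the labels' protocols. HISAT and the builds GRCm38.p6 and mm10 are named in the submitters' processing notes. The counter, the annotation and the choice between poly(A) selection and ribosomal depletion are not given in the sources used here. The authors deposited 1 table of TPM per library, rounded to 2 decimals, in which the entries sum to within 0.74 TPM of the total that the unit fixes. Read counts per gene are unknown, so no counting interval is given.

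From these TPM values log2(TPM + 1) was computed and tested with limma 3.58.1 in R 4.3.3, with an intensity trend, all 9 libraries in one fit, and Benjamini-Hochberg adjustment over the 13829 entries at 1 TPM or more in at least 3 libraries. Fold changes on this scale understate the change of low genes. The script was tested on simulated data. Genes below the filter were tested with exact permutation tests (scipy 1.17.1). Coordinates, transcript ends and stem-loops came from GENCODE M21 (GRCm38), and upstream sequence from RefSeq (GRCm38.p6). Named members are the 8 with the highest mean, the highest of each class and cluster, the 4 with the smallest p per comparison, and 3 on each side of the filter. From the other lists, the highest gene, the gene with the smallest p and some preset genes were eligible to be named. Members and lists were chosen with earlier results of these data known. A list of RNAs without a poly(A) tail was not used here.

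The labels number the libraries 1 to 3 in each group without saying that a number marks a shared animal or day. Deviations from the group means correlated between same-numbered ThTC and GFP-TC libraries at 0.74, 0.12 and 0.87, and these were treated as pairs in an alternative fit. ThTC 2 correlated more with GFP-TC 1 (0.38) than with GFP-TC 2, so the data do not bear out the pairing of number 2. For ThTC and sECM only the correlations were -0.55, 0.28 and -0.21, and for GFP-TC and sECM only -0.53, -0.14 and -0.19. Alternatives covered the pseudocount, the filter, median-of-ratios scaling, the intensity trend, the groups in the fit, the replicate block, leaving out each library or ThTC 3 with GFP-TC 3, and summing identical copies. The last was chosen after seeing the data.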

Additional observations from a re-analysis of the deposited data

How the results depend on the processing

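No histone gene was called in any of the 3 comparisons under any of the 19, 18 and 18 alternatives run. The 12 named changes kept their direction and stayed short of the threshold in all 209 refits. With the replicate number as a block, ThTC against GFP-TC gave 8 called genes in the 6 libraries of those groups and 0 in all 9 libraries, and GFP-TC against sECM only gave 1 in all 9, against 0 in each case without the block. The block changed no other call. Leaving out 1 library at a time gave 0 to 0 genes called for ThTC against GFP-TC, 0 to 1 for ThTC against sECM only (1 without sECM only 1) and 0 to 1 for GFP-TC against sECM only (1 without sECM only 1, and 1 without sECM only 2), with 0 to 0 histone genes throughout. The cause was not tested. Where a group was left with 2 libraries, the spread was shared over all groups.

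Over the alternatives, the member median ran from -0.11 to 0.14 for ThTC against GFP-TC and from -0.19 to 0.18 for ThTC against sECM only. For GFP-TC against sECM only it ran from -0.14 to 0.07. The alternatives did not all cover the same members. The 0.18 came from the fit on genes averaging 5 TPM or more, which kept fewer members. Leaving out 1 library at a time kept the members, and that comparison then gave -0.19 to -0.0055. Without both ThTC 3 and GFP-TC 3, the medians were 0.06, -0.08 and -0.12. The number of members at 1 TPM in 3 or more libraries, 41, became 55 at 0.5 TPM and 29 at 2 TPM. Depth beyond the total bases is unknown, so values near 1 TPM are weakly determined, and a value listed at 0 does not show that a gene was silent. Identical copies and the unknown RNA selection limit every comparison between members.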
